A study of Drosophila melanogaster with 4 samples.

Results

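The lysozyme genes LysB, LysD, LysE, LysP, LysS and LysX form, with LysC, a cluster on the left arm of chromosome 3 of Drosophila melanogaster. The 6 genes were taken by symbol from a deposited table of RNA-seq counts that lists 9931 genes, and all 6 were found. The table holds 4 libraries of total RNA from salivary glands of larvae in the last instar, raised at 25 °C, of which 2 are labelled wild type and 2 are labelled JIL-1-/-, a null mutant of the allele Z2. JIL-1 is a kinase of chromatin that phosphorylates histone H3. The strain of the wild type, the sex of the larvae and any pooling of animals are not given in the labels. The labels do not state whether the libraries of each genotype had separate animals as their source, so p-values below measure the spread between these libraries alone, which may be technical.

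Lysozymes cut the sugar backbone of peptidoglycan, the polymer of bacterial cell walls. In flies most lysozymes of this cluster are known as digestive enzymes, made in the gut of an animal that feeds on microbes, and not as products of the immune response in the fat body. LysB, LysD and LysE, with LysC, are close relatives known from the midgut, and LysS is known from the larval gut. LysX is known from the gut around the time of pupariation. LysP differs from these in that it is known from the salivary gland of the adult.

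In the newer annotation BDGP6.54 the order along the arm 3L is LysX, LysB, LysC, LysD, LysE, LysP and LysS. LysB, LysC, LysE and LysS lie on one strand and LysX, LysD and LysP on the other. LysC is marked there as a pseudogene and overlaps the end of LysD by 10 bases. That build differs from the builds named for the reads, BDGP5 and dm3, so its coordinates are not used. Whether reads were counted by strand, and how reads that match several paralogs were assigned, is not given in the sources used here. Counts of LysB, LysC, LysD and LysE are therefore uncertain as to which gene they belong to.

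The 4 libraries held between 6222322 and 11369094 counts. In CPM, counts per 1e6 counts of a library scaled by TMM factors, a level of 3 counts stood for 0.253 to 0.469 CPM. JIL-1 itself stood at 93.4 and 76.9 CPM in the wild-type libraries and at 55.5 and 55.7 CPM in the mutant ones (log2 fold change -0.61 ± 0.12, adjusted p = 0.0147 by edgeR). This is 1.53-fold lower, so that transcript remained in the mutant, and counts per gene cannot show whether it is functional; the level is a weak check of the label. A negative log2 fold change means a lower level in the mutant, ± after it is a standard error, and adjusted p are from the edgeR quasi-likelihood test, by the Benjamini-Hochberg method over all 7958 genes tested, unless another tool is named. Markers of the salivary gland were present in all libraries, with summed levels of 344100 and 404300 CPM in the wild-type libraries and 373000 and 350300 CPM in the mutant ones for 11 listed genes, among which Sgs3 and Sgs5, for proteins of the glue, were highest. Of these, PH4alphaSG1 and PH4alphaSG2, for prolyl hydroxylases of the gland, rose by 4.14 and 1.53 on the log2 scale, and Sgs1 fell by 1.25.

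LysP had an even level in wild type and fell in JIL-1 null. LysP (FBgn0004429) had 219 and 269 counts in wild type libraries 1 and 2, and 56 and 51 counts in JIL-1 null libraries 1 and 2. In CPM these were 34.3 and 34.0 in wild type against 6.92 and 4.31 in JIL-1 null. Both wild-type libraries lay above both mutant libraries, and the genotypes did not overlap. The mean fell from 34.1 ± 0.174 to 5.61 ± 1.85 CPM (SD, n = 2 each), a log2 fold change of -2.63 ± 0.24 (adjusted p = 0.000992), or 6.18-fold lower. Of all genes tested, 17.2% were called lower in JIL-1 null and 30.7% in either direction, so that a call alone does not set LysP apart.

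The gene was set against its paralogs because it was known to be even between the wild-type libraries, so the values of those libraries are a description and no test. The ratio of library 2 to library 1 was 0.993, with an exact 95% interval from 0.828 to 1.19. Between the mutant libraries, library 2 stood at 0.623 of library 1 (interval from 0.418 to 0.927). These intervals, like the others below, cover counting error only. In the authors' deposited table the fold of LysP is 0.178 and its false discovery rate 0.00123.

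The fall of LysP did not rest on one library. With each library left out in turn, the log2 fold change ran from -2.98 without JIL-1 null library 1 to -2.32 without JIL-1 null library 2, and the adjusted p from 0.000317 to 0.0149. Without wild type library 2, in which other lysozyme genes were high, the value was -2.64 ± 0.26 (adjusted p = 0.00153). Several markers of other tissues, but not all, were lower in the mutant as well. The summed level of 6 fat body genes was 57150 and 68010 CPM in the wild-type libraries and 34460 and 33580 CPM in the mutant ones, and that of 7 haemocyte genes was 124 and 126 against 80.5 and 77.8 CPM. Of the fat body genes, 4 of 6 tested fell (Fbp2, Lsd-1, Fbp1 and Lsp2), and of the haemocyte genes 3 of 4 tested fell (Hml, srp and crq). The fat body genes Lsp1alpha and Lsp1beta and the haemocyte gene Pxn were not called. Lsp1alpha stood at 4007 and 4695 CPM in the wild-type libraries and at 4115 and 4084 CPM in the mutant ones. Over all genes tested 17.2% fell. Hml, with 23 and 18 counts in wild type and 2 and 6 in the mutant, entered the test through wild type. It could hardly be called in the other direction. In the haemocyte list, the defining markers He, eater and nimC1 had at most 14 counts in any library, and the sum was mostly crq and srp. In such bulk samples fewer cells of a type and less RNA per cell cannot be told apart, and the part of these tissues in the result for LysP was not tested.

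**Figure D1:**
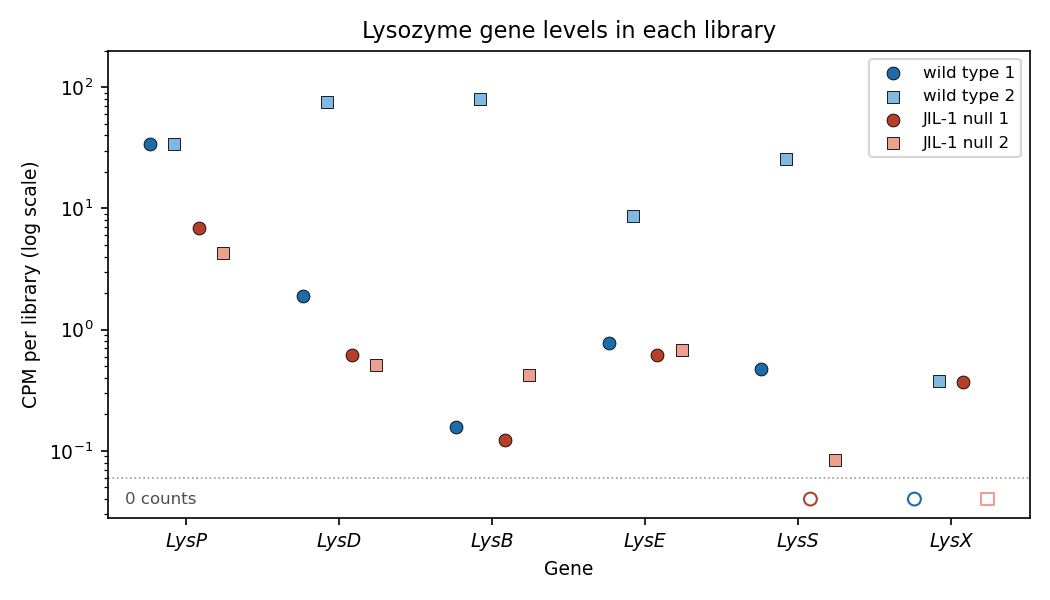
Level of each lysozyme gene in CPM (log scale) in each of the 4 libraries, with libraries of 0 counts as open symbols at the bottom. LysP has 34.3 and 34.0 CPM in wild type and lower values in JIL-1 null, while LysD, LysB, LysE and LysS are high in wild type library 2 alone.

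LysD, LysB, LysE and LysS showed another pattern, with a high level in wild type library 2 and counts of at most 12 in each of the other 3 libraries. LysD (FBgn0004427) had 12 and 603 counts in wild-type libraries and 5 and 6 in the mutant ones. In CPM these were 1.88, 76.2, 0.618 and 0.507. Library 2 stood 40.6-fold above library 1 within wild type (interval from 23.1 to 79.1), which is more than the difference between wild type library 1 and the mutant. Scaled for depth, the level of wild type library 1, on 12 counts, was 3.40-fold that of the pooled mutant libraries, on 11 counts. The interval ran from 1.37 to 8.51.

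LysD passed the test, with a log2 fold change of -6.12 ± 1.73 (adjusted p = 0.0424; 39.1 ± 52.6 CPM in wild type and 0.562 ± 0.0784 CPM in the mutant, with SD over 2 libraries each). The SD in wild type exceeded the mean, and the call rested on wild type library 2. Without that library the log2 fold change was -1.73 ± 0.84 (adjusted p = 0.179). Without wild type library 1 it was -7.08 ± 0.20 (adjusted p = 4.06e-06), a fit in which the lone wild-type library is assumed to vary like the mutant ones. Without JIL-1 null libraries 1 and 2 in turn the adjusted p were 0.156 and 0.238, and with limma-voom on all libraries it was 0.434.

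LysB (FBgn0004425) had 1 and 628 counts in wild-type libraries and 1 and 5 in the mutant ones. Wild type library 2, at 79.4 CPM, stood 508-fold above library 1, with an interval from 90.8 to 20080 since library 1 held a single count. Wild type library 1 lay between the mutant libraries, so the genotypes overlapped. Between wild type library 1 and the pooled mutant libraries the ratio of LysB was 0.520, with an interval from 0.0113 to 4.28 that includes equal levels.

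LysS (FBgn0004430) had 3 and 201 counts in wild-type libraries and 0 and 1 in the mutant ones. Library 2 of wild type, at 25.4 CPM, stood 54.2-fold above library 1 (interval from 18.3 to 265). Scaled for depth, the pooled wild-type level stood 284-fold above that of the mutant, which held a single count (interval from 50.5 to 11290). Of the 204 wild-type counts, 201 were those of library 2. LysE (FBgn0004428) had 5 and 69 counts in wild-type libraries and 5 and 8 in the mutant ones. Its ratio of library 2 to library 1 was 11.2 (interval from 4.56 to 35.4), and its ratio of wild type library 1 to the pooled mutant was 1.20 (interval from 0.335 to 3.59). For LysE and LysS wild type library 1 was above both mutant libraries in CPM, on 5 and 3 counts.

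LysX (FBgn0004431) had 0 and 3 counts in wild-type libraries and 3 and 0 in the mutant ones. It was not above 3 counts in any library, and a difference between genotypes was not detectable at this depth.

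LysB, LysE, LysS and LysX had too few counts in all but at most 1 library to enter the test, which needs about 10 counts in 2 libraries. Both members that entered it, LysD and LysP, were called, but LysD entered it through the wild-type libraries alone, so this count says little about the 6 genes. For 4 of the 6 genes both wild-type libraries lay above both mutant libraries, against 33.1% of the genes tested and 31.1% of all genes of the table. These were LysD, LysE, LysP and LysS. For LysE and LysS the order rested on 5 and 3 counts in wild type library 1, so this count too is no support. With no filter on low counts, edgeR gave adjusted p = 0.0573 for LysB, 0.0844 for LysE and 0.0407 for LysS, where 12.8% of all 9931 genes were called lower. In the authors' deposited table, of the 6 genes, 5 have a false discovery rate under 0.05, as do 37.7% of all its genes, and the deposited folds are 0.00784 for LysB, 0.0157 for LysD, 0.149 for LysE and 0.00260 for LysS. That rate is another measure than the adjusted p used here, since for LysX it lies below the authors' own p-value. The genes with these folds were high in wild type library 2 alone.

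**Figure D2:**
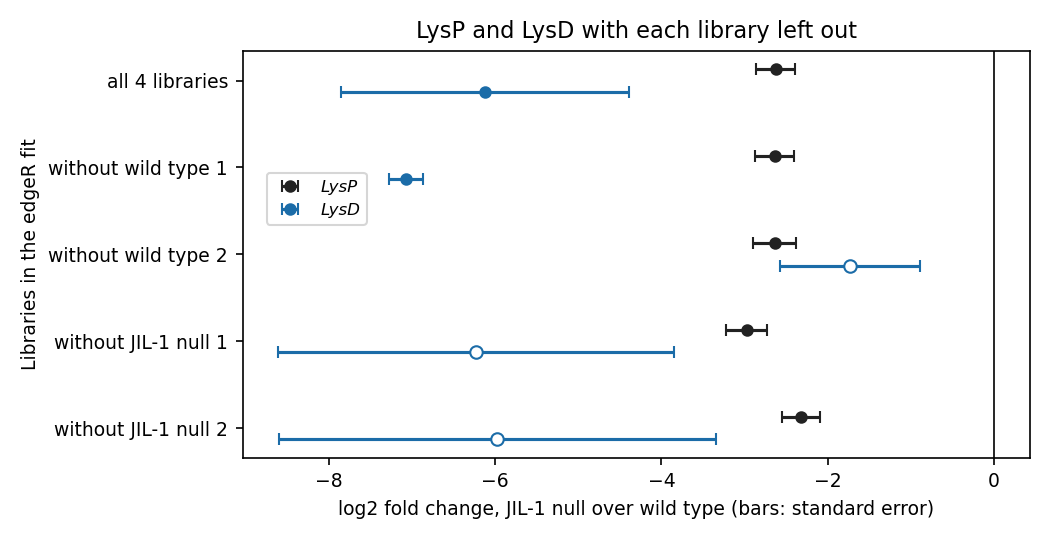
Log2 fold change of LysP (black) and LysD (blue) in the edgeR fit with all 4 libraries and with each library left out in turn. Bars are standard errors and open points have adjusted p of at least 0.05; LysP stays between -2.98 and -2.32, while LysD moves from -7.08 to -1.73 and is open in 3 of the 5 fits.

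The makeup of the lysozyme counts within each library describes the same counts in another way, and is no further support for the contrast of LysP with its paralogs. In wild type library 1, LysP held 91.3% of the 240 counts on the 6 genes (95% Wilson interval from 87.0% to 94.2%). In wild type library 2 it held 15.2% of 1773 counts (interval from 13.6% to 16.9%). In JIL-1 null libraries 1 and 2 it held 80.0% of 70 counts and 71.8% of 71 counts (intervals from 69.2% to 87.7% and from 60.5% to 81.0%). LysP thus held most of the lysozyme counts in 3 libraries, and wild type library 2 was the exception.

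In wild type library 2 the largest shares were those of LysB, at 35.4% (interval from 33.2% to 37.7%), and LysD, at 34.0% (interval from 31.8% to 36.3%). LysS held 11.3% and LysE 3.89% there. The ratio of LysP to the other 5 members together was 10.4 and 0.179 in the wild-type libraries and 4.00 and 2.55 in the mutant ones. The mutant values lie between those of the wild-type libraries. A two-sided exact permutation test of the log2 ratio between genotypes gave p = 1.00, but with 2 libraries against 2 it cannot give less than 0.3333, so it says nothing on a difference.

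**Figure D3:**
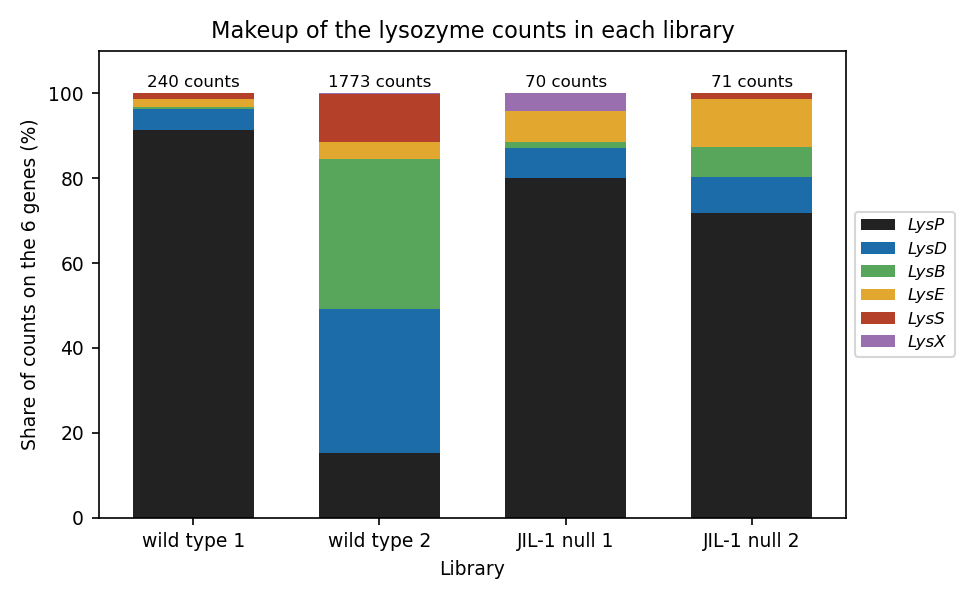
Share of each gene in the counts on the 6 lysozyme genes, in percent, for each library, with the number of counts above each bar. LysP (black) holds 91.3%, 80.0% and 71.8% in wild type library 1 and JIL-1 null libraries 1 and 2, and 15.2% in wild type library 2.

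Levels were set in order per length, as RPKM, with gene lengths derived from the authors' pooled RPKM and the counts. In wild type library 1, LysP stood at 56.9 RPKM, LysD at 3.99, LysE at 1.38, LysS at 0.977 and LysB at 0.329, with LysX at 0 counts. LysP was the only one clear of the rest, since the counting intervals of each other pair of neighbours overlapped. In wild type library 2, LysB at 151 and LysD at 147 RPKM led, did not differ beyond counting error and were followed by LysP at 51.2 and LysS at 47.9 RPKM, whose intervals also overlapped. LysE came next there at 13.9 RPKM, and LysX was last at 0.622. In JIL-1 null libraries 1 and 2, LysP led at 11.2 and 7.26 RPKM, and no other member exceeded 1.28 RPKM.

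Of the lysozyme genes outside the 6 members, LysC of the same cluster followed LysD. It had 10 and 648 counts in wild-type libraries and 7 and 12 in the mutant ones, and in wild type it was 52.4-fold higher in library 2 than in library 1 (interval from 28.3 to 110). Its log2 fold change was -5.45 ± 1.67 and did not pass the test (adjusted p = 0.0529), and without wild type library 2 it was -0.72 ± 0.76 (adjusted p = 0.520). With LysB, LysD and LysE summed into 1 row, the log2 fold change of that row was -5.80 and adjusted p = 0.0501, and with LysC added to the sum it was -5.68 and adjusted p = 0.0493. The second sum was chosen after the data were seen.

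No lysozyme-related gene listed outside the cluster was high in wild type library 2 alone. Of all genes of the table, only 0.413% were at least 10-fold higher there than in wild type library 1, at 5 CPM or more. Of 12 listed genes, LysC included, 6 were in the table, 4 were tested, 1 fell and 0 rose. The gene that fell was CG16799, from 17.0 and 19.7 CPM in wild type to 9.51 and 10.2 CPM in JIL-1 null (log2 fold change -0.90 ± 0.17, adjusted p = 0.0111). The other 4, CG16756, CG7798, CG6426 and CG14823, had at most 23 counts in any library. The median log2 fold change of the 4 tested genes in this list was -1.21, against 0.03 over all genes tested, of which 17.2% fell. Of the 4, LysC rested on wild type library 2. CG16756 entered the test through wild type (12 and 13 counts, against 5 and 7). CG14823 entered it through the mutant (23 and 17 counts, against 9 and 9). The median is therefore no support for a fall of the list.

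Digestive proteases of the midgut were high in the same library as LysD. Of 28 listed trypsin and Jonah protease genes 19 were in the table, and their summed level was 18.8 and 816 CPM in wild type libraries 1 and 2, against 15.4 and 14.5 CPM in JIL-1 null. At 5 CPM or more, and with counts under 3 set to 3, 10 of the 19 were at least 10-fold higher in wild type library 2 than in library 1. Jon65Aiv, a Jonah protease gene, had 25 and 2415 counts in wild-type libraries and 38 and 21 in the mutant ones, and Jon65Aiii had 15, 921, 18 and 9. Not all did so: Jon99Fi had 16 counts in wild type library 1 and 1 in library 2, and Jon66Ci had 9 and 0. Of the 7 tested, 2 fell and 0 rose, namely Jon25Bii (-5.60 ± 1.67, adjusted p = 0.0496) and epsilonTry (-4.22 ± 1.15, adjusted p = 0.0377), and without wild type library 2 this count was 0. Both entered the test through wild type, where they were high, so they could hardly be called in the other direction and their count is no support. The median log2 fold change of the 7 tested was -4.46, and each of these 7 was highest in wild type library 2. The part of these proteases' source in the levels of LysB, LysD, LysE and LysS was not tested.

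Other listed genes of the gut were mostly at low counts, and several of them were highest in wild type library 2. The midgut genes mex1, Npc1b and Peritrophin-A had 8, 5 and 5 counts there and at most 6 in each other library, so these markers stood near 0 throughout. Of 14 listed carbohydrate and lipid enzymes 9 were in the table, and of these mag, a lipase gene, was at least 10-fold higher in wild type library 2 at 5 CPM or more with counts under 3 set to 3, with 3 and 184 counts in wild-type libraries and 0 and 3 in the mutant ones. The maltase genes Mal-A8, Mal-A1 and Mal-A7 had 18, 10 and 9 counts in wild type library 2 and at most 6 in each other library. The amylase genes Amy-p and Amy-d went the other way, with 0 counts in wild type library 2. In JIL-1 null libraries 1 and 2 Amy-p had 3 and 6 counts and Amy-d had 5 and 5. Mal-A5 and Mal-A6 differed little between the wild-type libraries beside mag, with library 2 at 1.286 and 1.105 of library 1, and both fell. Mal-A6 stood at 59.7 and 66.0 CPM in the wild-type libraries and at 8.89 and 8.27 CPM in the mutant ones (log2 fold change -2.88 ± 0.12, adjusted p = 0.000141), and Mal-A5 had a log2 fold change of -1.30 ± 0.15 (adjusted p = 0.00217). These were the 2 called of 3 tested, and 0 rose, with a median of -1.30. Over all genes tested 17.2% fell, and the median was 0.03.

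**Figure D4:**
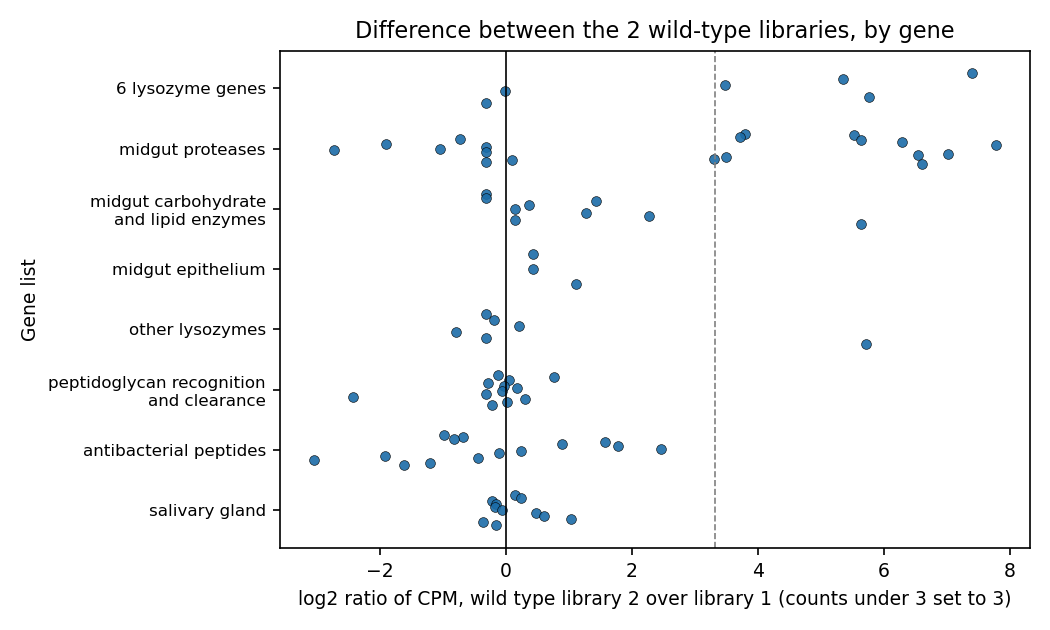
Log2 ratio of CPM of wild type library 2 over library 1 for each listed gene of 8 groups, with counts under 3 set to 3; the solid line marks equal levels and the dashed line a 10-fold ratio. LysB, LysD, LysE, LysS, LysC, mag and 10 midgut proteases lie beyond the dashed line, while LysP and the peptidoglycan recognition, antibacterial peptide and salivary gland genes do not. Of all genes of the table, 0.413% lie beyond it at 5 CPM or more.

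Over the whole table, few genes separated the wild-type libraries this far. At 5 CPM or more, 41 genes (0.413% of 9931) were at least 10-fold higher in wild type library 2 than in library 1, and 11 genes the other way (0.111%). The 41 include 4 lysozyme members, LysC and 10 midgut proteases. This compares 1 library with 1 and has no replicate check, and the fold and the minimum were chosen after the data were seen. Of the 41, 22 could be tested between genotypes and 3 of these fell, where 17.2% of all genes tested did. The 41 were picked for a wide difference within wild type, which enters the spread that the test uses. The count of 3 therefore follows in part from the choice and is no result about these genes. Between the mutant libraries, 24 genes were at least 10-fold higher in library 1 than in library 2, of which 5 were among the 41. None of the 5 was a lysozyme gene or a listed protease.

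Among genes that recognise or clear peptidoglycan, the substrate of lysozyme, 0 of 12 listed were 10-fold higher in wild type library 2 than in library 1. At 5 CPM or more only 0.413% of all genes of the table were, so 0 of 12 does not set this list apart. PGRP-LB, for an amidase, stood at 31.3 and 53.4 CPM in wild type. Over all genes tested, 17.2% fell and 13.5% rose, with a median log2 fold change of 0.03. Of the 12 genes 10 were tested, of which 5 fell and 1 rose, with a median of -0.95. Those that fell by the smallest adjusted p were pirk, an inhibitor of the Imd pathway, at -1.22 ± 0.12 (adjusted p = 0.00119), and PGRP-SA and PGRP-SD, recognition proteins of the Toll pathway, at -1.54 ± 0.17 and -1.23 ± 0.20 (adjusted p = 0.00180 and 0.00686). PGRP-LC, the membrane receptor of the Imd pathway, was the most abundant of the list beside pirk and fell by 0.95. The gene that rose was PGRP-LA, at 0.45 ± 0.10 (adjusted p = 0.0185). The secreted amidase genes PGRP-SC1a and PGRP-SC1b, known from the gut, had 3 and 13 counts in wild type library 1 and 0 in library 2, where LysB and LysD were high. PGRP-SC2 of the same list did not share this pattern, with 15 and 23 counts in wild type libraries 1 and 2.

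Antibacterial peptide genes, the products of the immune response, differed among themselves between the wild-type libraries. Of 14 listed genes 12 were tested, of which 4 fell and 1 rose, with a median of -1.03, and without wild type library 2 these counts were 8 and 1. For comparison, 17.2% of all genes tested fell and 13.5% rose, with a median of 0.03. The summed level of the 14 genes was 477 and 246 CPM in wild type libraries 1 and 2 and 190 and 231 CPM in JIL-1 null. Library 2 was thus the lower of the wild-type libraries. In wild type library 1 Dpt was the largest part of the sum, at 172 CPM. In library 2 it stood at 45.5 CPM, near DptB at 43.2 CPM. In JIL-1 null libraries 1 and 2 CecC was the largest part, at 95.8 and 84.2 CPM, against 26.7 and 41.2 CPM for Dpt. CecB had 5 and 34 counts in wild type and 1 and 0 in the mutant, and CecA2 had 4, 17, 5 and 6, so that with AttD these cecropin genes were higher in library 2. AttD, of the attacin family, fell by 5.55 on the log2 scale, with 77 and 283 counts in wild type against 4 and 6 (adjusted p = 0.00286). It entered the test through wild type, so it could hardly be called in the other direction. DptB, for a diptericin, fell by 1.70 (adjusted p = 0.00508). CecC, for a cecropin, rose from 12.5 and 14.8 to 95.8 and 84.2 CPM, a log2 fold change of 2.71 ± 0.13 (adjusted p = 0.000235). Dpt had a log2 fold change of -1.66 ± 0.59 and did not pass the test (adjusted p = 0.0783).

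The named genes most like LysP and LysD over the 4 libraries were found by the distance between log2(CPM + 0.5) profiles, each centred on its own mean, over 7956 other tested genes. For LysP these were TpnC73F, for a troponin C, pho, for a DNA-binding Polycomb group protein, w, for the transporter of eye pigment precursors, Cdk4, for a kinase of the cell cycle, and Grd, for a ligand-gated ion channel subunit. Their distances ran from 0.202 to 0.375, against a median of 2.63 over all genes compared. TpnC73F had 208 and 282 counts in wild-type libraries and 58 and 60 in the mutant ones, and pho had 183, 253, 60 and 54.

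For LysD the nearest were Jon25Bii, LysC, Jon65Aiii, Jon65Aiv and epsilonTry, at distances from 0.529 to 1.79 against a median of 5.13. Jon25Bii had 8 and 455 counts in wild-type libraries and 4 and 8 in the mutant ones. All 5 are of the listed midgut proteases or of the lysozyme cluster, and 1 gene known only by a number was nearer than epsilonTry, as 12 such genes were nearer to LysP than Grd. These likenesses rest on 4 libraries and, for LysD, on 1 of them.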

How the data were processed

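RNA-seq counts of 2 wild-type and 2 JIL-1 null salivary gland libraries were used. The table gives raw counts per gene, deposited by the authors without scaling. It also has, per the file headers, an RPKM for each genotype, a fold (ratio of mutant to wild type), a p-value and its adjusted false discovery rate, all made by the authors. The submitters' processing notes name the aligner GSNAP and the builds BDGP5 and dm3. Which counter, annotation and test they used is not given in the sources used here.

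The test over all genes was that of edgeR 4.0.16 under R 4.3.3 (glmQLFit and glmQLFTest, two-sided, TMM factors, filterByExpr with a count minimum of 10 and a total minimum of 15), and called at an adjusted p of 0.05. The procedure was tested on simulated data. Alternatives used DESeq2 1.42.0, limma 3.58.1, other scalings and filters, a replicate block, libraries left out and summed paralogs. Ratios of counts have exact 95% intervals and shares have Wilson intervals, computed with scipy 1.17.1. Gene lengths for RPKM per library were derived from the deposited RPKM and counts of wild type. Libraries that share a genotype differed beyond sampling noise (chi-square per degree of freedom of 23.4 for wild type and 9.17 for the mutant) and each counts as a sample. Gene order came from BDGP6.54 by gene identifier, which matched 9523 identifiers and not 408.

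The members, the 9 gene lists and the tests were chosen with earlier results of these data known. Named from each list were called members, at most 3 by smallest adjusted p, and the 2 most abundant, and for LysP and LysD the 5 nearest genes with a symbol that is not a number. Others were chosen after their values were seen. Among the gut genes these were markers given for their low counts, Jon99Fi, Jon66Ci, mag, Mal-A1, Mal-A7, Mal-A8, Amy-p and Amy-d. In the other lists they were Lsp1alpha, Lsp1beta, Pxn, Hml, CG16756, CG14823, PGRP-LB, PGRP-SC1a, PGRP-SC1b, PGRP-SC2, CecA2 and CecB.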

Additional observations from a re-analysis of the deposited data

How the results depend on the processing

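LysP fell in all 13 alternatives run, with log2 fold changes from -2.98 to -2.32 and adjusted p from 3.11e-16 to 0.0149. LysD was lower in the 11 alternatives that keep it as a row of its own and lost its call in 4: with limma-voom (-4.60, adjusted p = 0.434) and in 3 of the 4 fits with a library left out, over which it ran from -7.08 to -1.73. Its adjusted p lay between 4.06e-06 and 0.434 over these 11. The log2 ratio of pooled CPM, with at least 3 counts assumed in each genotype, was -7.19 for LysB, -2.99 for LysE and -6.57 for LysS, and with libraries left out ran from -8.04 to -0.64, from -3.74 to -0.26 and from -7.40 to -1.64, the value nearest 0 being that without wild type library 2. For LysB that value is set by the assumed 3 counts. Without that assumption, 1 count in wild type library 1 and 6 in the mutant give a depth-scaled ratio of 0.520, wild type to mutant. This is the opposite direction, which counting error covers. The cause of the lost call with limma-voom was not tested.

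Over all genes, 1077 were higher and 1369 lower. Upper quartile scaling gave 1690 higher (59.4% of calls, against 44.0%), moving the median log2 fold change from 0.03 to 0.17, and DESeq2 gave 587 higher. With libraries left out the counts ran from 195 to 1186 higher and from 524 to 1612 lower, the fewest without JIL-1 null library 2, where an arm with 1 library is assumed to vary like the other.

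The 2 midgut proteases called lower became 4 with upper quartile scaling and with DESeq2, 5 at a mean of at least 5 CPM and 0 with limma-voom, and ran from 0 to 11 with libraries left out. The 1 other lysozyme gene called lower became 2 with DESeq2 size factors in edgeR, upper quartile scaling, a mean of at least 5 CPM and DESeq2, and ran from 0 to 2 with libraries left out. With libraries left out the midgut carbohydrate and lipid enzymes called lower ran from 2 to 4. The peptidoglycan genes ran from 3 to 6 lower and from 0 to 1 higher, with 0 higher by DESeq2. The antibacterial peptides ran from 2 to 8 lower.

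Same-numbered libraries did not deviate together over all genes (correlation -0.0543). A single value over all genes cannot exclude a pairing that affects some of them, and the labels give only a number. With the replicate number as a block, LysD had a log2 fold change of -6.01 (adjusted p = 0.00305) and LysP one of -2.64 (adjusted p = 0.000315), 961 genes were higher and 1300 lower, 5 midgut proteases were lower and 2 other lysozyme genes were lower. Depth limits LysX throughout and, outside wild type library 2, LysB, LysE and LysS, which had at most 8 counts in each other library.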
